A study of Mus musculus with 12 samples.

Results

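Sstr2, Gal, Elavl3, Camk2n2 and Ttc9b are 5 genes best known from neurons, and they were followed here over 3 days after the induced deletion of Hdac1 and Hdac2 in mouse embryonic stem cells. They were chosen by their measured log2 differences between days, as neural or neuropeptide genes among the largest rises of single days, so the values below that show those rises are a description and carry no test. The 5 genes are 5 of 19057 genes with a symbol of their own on the array and have 8 of its 45281 probes. All 5 passed the filter on detection that left 9934 genes for testing, 3 of them through arrays of every day. Sstr2 passed only through days 2 and 3, and Gal mainly through those days, where both were high. The pick had no numerical threshold, so no gene stood just outside one.

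The line derives from E14 embryonic stem cells, its genotype is Hdac1lox/lox, Hdac2lox/lox, and all cells on all days also carry CreER, a Cre recombinase that enters the nucleus when 4-hydroxytamoxifen (OHT) binds it. Cells were kept in serum and LIF on gelatin with no feeders, and OHT was given for 16 hours. Total RNA of days 0, 1, 2 and 3 was hybridised to 12 Illumina bead arrays, 3 for each day. The titles mark day 0 with OHT too while the design text calls it wild type, so whether the day 0 cells had met OHT is not stated. No cells without loxP sites that received OHT and no untreated cells of days 1 to 3 were among the samples, so time in culture, OHT and the deletion cannot be told apart. Nothing in the labels tells whether the replicates of a day were separate cultures, and p-values then measure only the spread between these samples.

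HDAC1 and HDAC2 remove acetyl groups from histone tails as the catalytic subunits of the SIN3, NuRD and CoREST complexes. In cells that are not neurons, the zinc finger protein REST binds RE1 sites near many neuronal genes and recruits SIN3 and CoREST there. SSTR2 is a G protein-coupled receptor for the peptides somatostatin and cortistatin. Galanin, the product of Gal, is a secreted neuropeptide that acts on its own family of G protein-coupled receptors. ELAVL3, also called HuC, binds U-rich and AU-rich elements of neuronal messenger RNAs. CAMK2N2 is a small protein inhibitor of the calcium- and calmodulin-dependent kinase CaMKII, and TTC9B is a small protein with tetratricopeptide repeats, a fold that binds other proteins.

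The 250 bases upstream of the annotated starts are shown because the 5 genes were high together from day 2 and because the control of such genes is usually discussed through sites near their starts. They come from RefSeq, build GRCm38.p6, are written 5′ to 3′ on the strand of the gene, and each gene had 1 window in that table. Capitals mark matches, on either strand, to the GC box GGGCGG, the cyclic AMP response element TGACGTCA, the TATA box TATAAA and the CCAAT box CCAAT. For Elavl3 the window, chr9:22052024-22052273, reaches into the annotated span of the gene, and a stretch of 30 bases, from 40 to 11 bases before the start, is shown.
Sstr2, chr11:113619077-113619326, + strand: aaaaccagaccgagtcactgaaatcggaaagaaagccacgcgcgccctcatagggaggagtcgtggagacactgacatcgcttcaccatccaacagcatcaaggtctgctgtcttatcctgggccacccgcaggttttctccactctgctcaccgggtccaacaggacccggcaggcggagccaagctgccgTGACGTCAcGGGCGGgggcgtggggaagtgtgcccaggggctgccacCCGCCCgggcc
Gal, chr19:3414545-3414794, − strand: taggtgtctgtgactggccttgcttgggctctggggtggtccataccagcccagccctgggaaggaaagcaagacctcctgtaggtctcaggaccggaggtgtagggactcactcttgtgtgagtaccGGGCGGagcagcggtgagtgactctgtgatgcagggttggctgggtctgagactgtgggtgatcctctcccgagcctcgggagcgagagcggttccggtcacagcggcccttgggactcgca
Elavl3, chr9:22052034-22052063, − strand: ctgcctcTATAAAgggctggGGGCGGcggc
Camk2n2, chr16:20621279-20621528, − strand: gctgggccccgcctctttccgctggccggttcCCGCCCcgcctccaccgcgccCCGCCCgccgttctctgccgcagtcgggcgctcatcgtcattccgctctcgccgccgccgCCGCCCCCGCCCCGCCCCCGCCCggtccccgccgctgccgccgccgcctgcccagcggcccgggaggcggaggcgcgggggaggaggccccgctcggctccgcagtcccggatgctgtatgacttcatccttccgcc
Ttc9b, chr7:27653674-27653923, + strand: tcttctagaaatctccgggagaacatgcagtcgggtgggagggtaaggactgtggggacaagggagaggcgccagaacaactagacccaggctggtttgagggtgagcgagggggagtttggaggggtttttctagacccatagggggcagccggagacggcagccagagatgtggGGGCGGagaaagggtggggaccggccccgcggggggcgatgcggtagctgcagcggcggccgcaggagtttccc

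All 5 windows held the GC box, the letters that Sp1 family factors are known to bind. Camk2n2 had 6 matches, Sstr2 had 2, and Gal, Elavl3 and Ttc9b had 1 each. Of the 32841 upstream windows in the table, 32.8% held it. Of the 5 windows, the cyclic AMP response element was found in that of Sstr2, with its first base 58 bases before the start, and 1.55% of all windows held it. Elavl3 was the 1 window of the 5 with a TATA box, 33 bases before the start, and with a CCAAT box, 66 bases before it. All windows held these at 12.4% and 33.9%.

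All 5 windows lay above the median of all windows in G and C. The GC content was 80% in Camk2n2, 64.4% in Ttc9b, 63.6% in Sstr2, 62.4% in Gal and 61.6% in Elavl3, against a median of 52.4% over all windows. The share of windows with lower GC was 98.8% for Camk2n2, and it ran from 75.7% for Elavl3 to 81.6% for Ttc9b among the rest. The observed over expected ratio of CpG was 1.04 in Camk2n2, 0.845 in Elavl3, 0.713 in Sstr2, 0.668 in Ttc9b and 0.469 in Gal, and its median over all windows was 0.374. The share of windows with a lower ratio ran from 57.4% for Gal to 95.7% for Camk2n2. A search for letters of the RE1 site gave no match in any of the 5 windows. The left side of that site was searched as CAGCACC, which 5.73% of all windows held, and the right side as GGACAG, which 18.7% held. The joined form, with 2 free bases between the sides, was held by 0.0335%. RE1 sites are often far from a start, and nothing on the binding of REST follows from these windows.

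Before the genes themselves, the arrays need few words. Between 14509 and 16770 probes were detected on an array, where detected means a detection p-value under 0.01 against the array's negative controls. The upper quartile of the unscaled intensity ran from 272.2 on replicate 2 of day 3, the dimmest array, to 382.2 on replicate 3 of day 2. Hdac1 is not analysed here. The brighter Hdac2 probe had a log2 level of 13.58 ± 0.16 at day 0 and of 13.32 ± 0.25 at day 3, each over 3 arrays (limma adjusted p = 0.149), and since the tables do not place it inside or outside the deleted part it does not check the deletion. Of the 9934 genes tested, 0.101% were called changed at day 1, 22.4% at day 2 and 39.1% at day 3 against day 0, at a limma p under 0.05 after Benjamini-Hochberg adjustment over all genes tested. The 3 comparisons with day 0 share its 3 arrays.

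On every array of days 2 and 3, all 5 genes lay above each of their day 0 values. Among all genes tested, 22.8% did so at day 2 and 24.3% at day 3, and since these comparisons chose the 5 genes nothing is read from the count. At day 1 the normalized values of 4 genes, Gal the exception, did so too (10.6% of all genes). For Sstr2, undetected on every array of days 0 and 1, that is an order among values below the detection limit. By the call, 1 of the 5 (Elavl3) was called higher at day 1, where 0.0805% of all genes were, and 5 of 5 were at day 2 and at day 3, where 14.8% and 21.4% of all genes were. The median log2 difference of the 5 genes from day 0 was 0.64 at day 1, 1.61 at day 2 and 2.97 at day 3, beside 0.02, 0.03 and 0.01 over all genes tested. Between days 1 and 2 the 5 genes were all called higher, as 7.3% of all genes were, and no array overlapped, as in 19.5% of all genes. Between days 2 and 3 Sstr2, Camk2n2 and Ttc9b were called higher, as 5.7% of all genes were, and had arrays that did not overlap, as in 14.7%. All these calls fall on the comparisons that chose the 5 genes, so they are a description and nothing is read from them. In RNA of whole cultures, more cells with the transcript and more transcript per cell cannot be told apart.

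**Figure D1:**
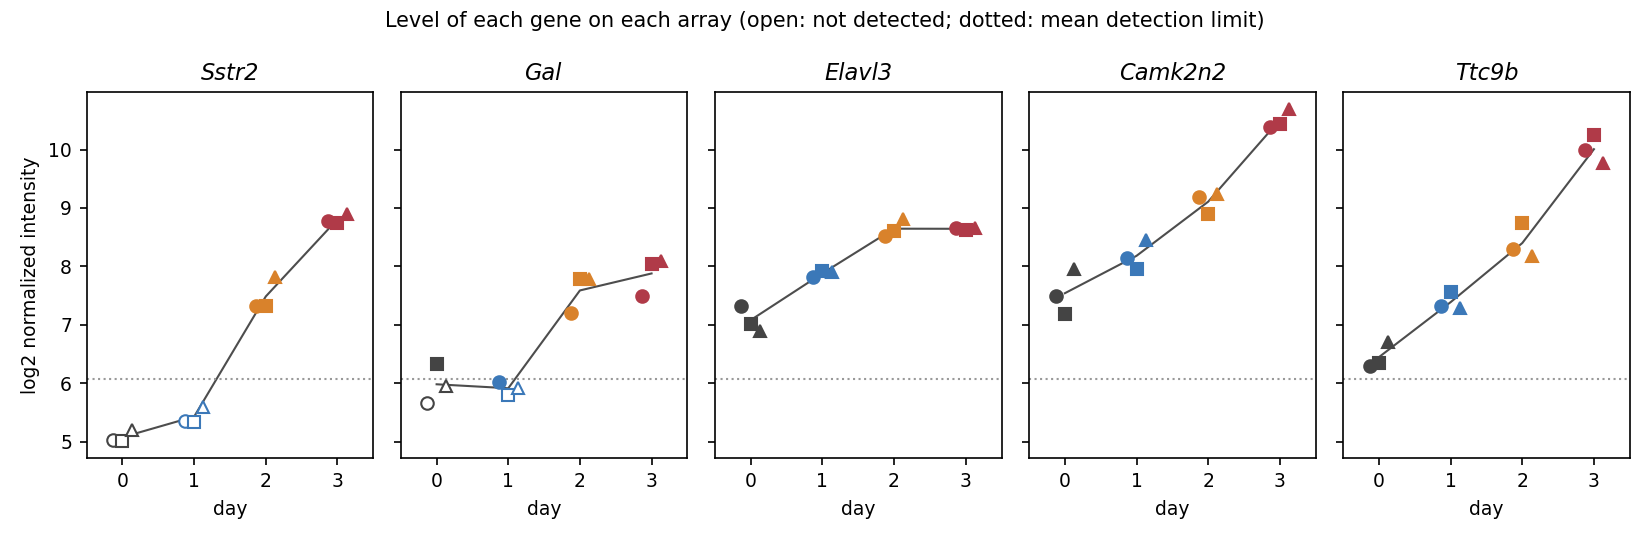
Log2 normalized intensity (y axis) of the 5 genes on each of the 12 arrays against the day (x axis). Circles, squares and triangles are replicates 1, 2 and 3, open symbols are arrays without detection, lines join the means of a day and the dotted line is the mean detection limit. Sstr2, Camk2n2 and Ttc9b climb from day 2 to day 3, whereas the day 2 and day 3 arrays of Gal and of Elavl3 overlap.

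Sstr2, the receptor, appeared on day 2 and was higher again on day 3. Its bright probe, ILMN_1229577, read 173, 170 and 203 in unscaled intensity on replicates 1 to 3 of day 0, 190, 185 and 218 at day 1, 320, 370 and 464 at day 2, and 572, 431 and 747 at day 3. No array of days 0 and 1 was detected and every array of days 2 and 3 was, with no overlap between the earlier and the later pair of days. On the log2 scale after background correction and normalization the mean was 5.07 ± 0.11 (SD, n = 3) at day 0, 5.43 ± 0.14 at day 1, 7.49 ± 0.28 at day 2 and 8.81 ± 0.08 at day 3. The first 2 means lie below the detection limit, so folds against them are lower bounds, computed against the limit or the probe's own value, whichever was higher on each array. Sstr2 was at least 2.55-fold higher at day 2 and at least 6.38-fold higher at day 3 than at day 0. From day 2 to day 3, where both sides were measured, it was 2.50-fold higher, a log2 difference of 1.32 ± 0.14 (limma SE).

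The gene lies at chr11:113619327-113626028 on the + strand of GRCm38.p6, inside the annotated span of Slc39a11, a zinc transporter gene on the − strand at chr11:113244851-113650200. A second Sstr2 probe, ILMN_3106619, was not detected on any of the 12 arrays and read between 148 and 192 in unscaled intensity. Its log2 means were 4.93, 4.76, 4.84 and 5.0 on days 0 to 3, all below the detection limit. The course of Sstr2 therefore rests on 1 of its 2 probes, and where either probe lies in the transcript was not known here.

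The relatives of the 5 genes, outside the genes themselves, numbered 32, of which 29 were on the array, 16 were tested, 6 rose at day 3 and 0 fell, beside 21.4% higher and 17.8% lower of all genes tested. Of the relatives of Sstr2, 1 was tested and was not called. Sst, which encodes somatostatin, and the receptor genes Sstr1, Sstr3, Sstr4 and Sstr5 were not detected on any array. Cort, which encodes cortistatin, the other ligand of SSTR2, was at 6.14 ± 0.10 at day 0 and 6.0 ± 0.67 at day 3. Its difference of -0.14 ± 0.25 had an adjusted p of 0.696 in the limma fit, with 1 array detected on each of these days and 3 on each of the days between. Without replicate 2 of day 3 the difference of Cort was -0.51 and its adjusted p 0.0209, and over all alternatives that p ranged from 0.0209 to 0.929.

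Gal, the neuropeptide precursor, at chr19:3409915-3414544 on the − strand, has 1 probe. Its unscaled intensity was 202, 216 and 240 on the day 0 arrays, 220, 200 and 232 at day 1, 308, 446 and 459 at day 2, and 329, 330 and 505 at day 3. Only 1 array of day 0 and 1 of day 1 were detected, and those days overlap, whereas the arrays of days 2 and 3 were all detected and lay above both. The log2 mean was 5.98 ± 0.33 at day 0, 5.91 ± 0.12 at day 1, 7.59 ± 0.34 at day 2 and 7.88 ± 0.33 at day 3. The fitted log2 differences from day 0 were 1.61 ± 0.21 at day 2 and 1.90 ± 0.21 at day 3, 3.05-fold and 3.73-fold, against a day 0 level that was measured on 1 of 3 arrays. With the other arrays of day 0 set at their detection limit, Gal was 2.70-fold higher at day 2 and 3.30-fold higher at day 3. The day 3 arrays overlapped those of day 2, and the log2 difference between these days was 0.29 ± 0.21.

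Of the genes for galanin receptors, Galr2 was tested and changed. Its log2 level was 5.93 ± 0.35 at day 0, with 1 array detected, and 6.88 ± 0.06 at day 3, with 3 detected. The fitted difference of 0.95 ± 0.16 had an adjusted p of 0.000487 in the limma fit. Galr2 passed the detection filter mainly through the later days, and with its undetected arrays set at their limit it was 1.67-fold higher at day 3; at day 2 the adjusted p was 0.0872 with a difference of 0.40. Galr1 was at 6.30 ± 0.36 at day 0 and 6.01 ± 0.39 at day 3 (difference -0.30, adjusted p = 0.321). Galr3 and Spx, the gene of the related peptide spexin, were not detected on any array.

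Elavl3, the RNA-binding protein, at chr9:22015005-22052146 on the − strand, had covered more of its day 3 change by day 1 than Camk2n2 or Ttc9b, the other genes detected on all day 0 arrays. Its bright probe, ILMN_1214737, read 311, 249 and 306 in unscaled intensity at day 0, 385, 343 and 410 at day 1, 521, 655 and 747 at day 2, and 539, 409 and 656 at day 3. It was detected on all 12 arrays, and at day 1 all 3 arrays were already above those of day 0. The log2 mean was 7.08 ± 0.22 at day 0, 7.88 ± 0.06 at day 1, 8.65 ± 0.16 at day 2 and 8.64 ± 0.03 at day 3. This is 1.74-fold above day 0 at day 1, 2.96-fold at day 2 and 2.95-fold at day 3. Days 2 and 3 could not be told apart, with a log2 difference of -0.00 ± 0.13.

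The 2 other Elavl3 probes did not give that course in full. ILMN_2718837 was undetected on all arrays of days 0 and 1, detected on 3 arrays at day 2 and on 2 at day 3. It was at least 1.31-fold higher at day 2 than at day 0, and its day 3 arrays, at a log2 mean of 6.0 ± 0.72, overlapped those of day 0 at 5.55 ± 0.42. ILMN_1244235 was not detected on any array. The other members of the family behaved differently in level and in change. Elavl1, the broadly expressed HuR, differed by -0.19 ± 0.20 at day 3 (adjusted p = 0.489), and Elavl2 (HuB) by 0.07 ± 0.13 (adjusted p = 0.7). A second Elavl1 probe, ILMN_1243703, was detected on all 3 day 0 arrays, at 6.54, and on none at day 3; its level there was at least 1.37-fold below that of day 0. Elavl4 (HuD), another neuronal member, was not detected by any of its probes.

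**Figure D2:**
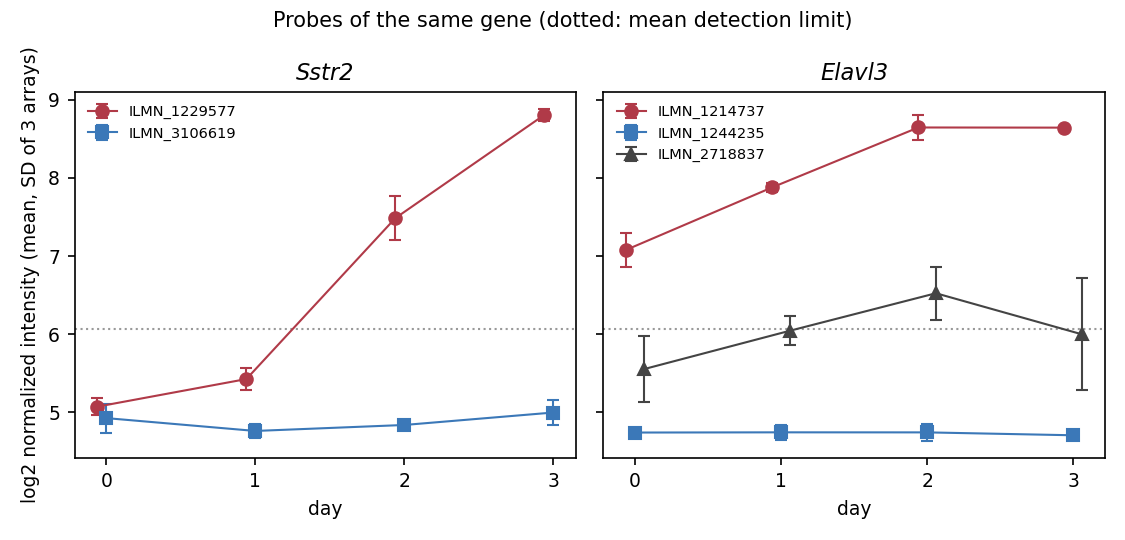
Log2 normalized intensity (mean and SD of 3 arrays, y axis) of every probe of Sstr2 and Elavl3 by day (x axis), with the mean detection limit dotted. The second probe of Sstr2 stays between 4.76 and 5.0, and of the dimmer Elavl3 probes ILMN_2718837 reaches 6.52 at day 2 and ILMN_1244235 is never detected.

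Camk2n2, the CaMKII inhibitor, at chr16:20619215-20621278 on the − strand, has 1 probe and was detected on all 12 arrays. It read 329, 261 and 457 in unscaled intensity at day 0, 444, 349 and 518 at day 1, 738, 762 and 938 at day 2, and 1423, 1003 and 2142 at day 3. The unscaled values of days 0 and 1 overlap, and each later day lies above the day before. After normalization the log2 mean was 7.54 ± 0.39, 8.18 ± 0.25, 9.11 ± 0.18 and 10.51 ± 0.17 on days 0, 1, 2 and 3. Camk2n2 was 2.96-fold higher at day 2 and 7.82-fold higher at day 3 than at day 0, with a log2 step of 1.40 ± 0.19 between days 2 and 3. Replicate 2 was the lowest normalized array of days 0, 1 and 2, and replicate 3 was the highest array of every day.

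The genes of the kinases that CAMK2N2 inhibits, and others of the calmodulin pathway, were tested as relatives. Of 10 tested, all detected on every day 0 array, 5 rose at day 3 and 0 fell, beside 21.4% higher and 17.8% lower of all genes tested. The median log2 difference was 0.43, and 0.01 over all genes. Camkv, a kinase-like protein of synaptic vesicles, rose by 1.14 ± 0.17 (adjusted p = 0.000256). Among the CaMKII subunits Camk2b rose by 0.88 ± 0.16 (adjusted p = 0.000966), Camk2a by 0.80 ± 0.16 (adjusted p = 0.00211) and Camk2g by 0.42 ± 0.14 (adjusted p = 0.0274). Calm3, 1 of the calmodulin genes, rose by 0.44 ± 0.11 (adjusted p = 0.00644) while Calm2 differed by -0.01. These calls came from the limma fit over all genes.

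The smallest of these calls depended on the scaling. Scaled to the 75th percentile, the adjusted p was 0.0635 for Camk2g and 0.124 for Calm3, and with no scaling 0.533 and 0.65. Without scaling the adjusted p was also 0.0587 for Camk2b and 0.0714 for Camk2a. Camk2g lost its call without replicate 2 or 3 of day 0 and without replicate 1 or 2 of day 3, with adjusted p from 0.0537 to 0.109. Over all alternatives the adjusted p ranged from 0.0122 to 0.533 for Camk2g and from 0.000949 to 0.65 for Calm3.

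The second CaMKII inhibitor gene, Camk2n1, took another course. It rose by 0.92 ± 0.19 at day 2 (adjusted p = 0.00457) and differed from day 0 by -0.43 ± 0.19 at day 3 (adjusted p = 0.0941), where its log2 mean was 6.63 ± 0.27 against 7.05 ± 0.43. Its second probe also peaked at day 2, with means of 6.69, 6.85, 7.60 and 6.95, and stood slightly above day 0 at day 3. Without replicate 2 of day 0 the difference of Camk2n1 at day 3 was -0.65, with an adjusted p of 0.0102, the lowest over all alternatives, where it reached 0.413. Pnck, a calmodulin-dependent kinase of neurons, rose by 1.00 ± 0.26 at day 2 (adjusted p = 0.0149) and differed by 0.56 ± 0.26 at day 3 (adjusted p = 0.104). Without replicate 3 of day 3 that difference of Pnck was 0.84, with an adjusted p of 0.0128, and over all alternatives the p ranged from 0.0128 to 0.344. Camk1 and Camkk2 differed by 0.03 and -0.23 at day 3 (adjusted p = 0.915 and 0.321).

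Ttc9b, at chr7:27653924-27656207 on the + strand, has 1 probe, detected on all 12 arrays. Its unscaled intensity was 230, 217 and 288 at day 0, 315, 301 and 325 at day 1, 471, 698 and 542 at day 2, and 1106, 904 and 1224 at day 3. No array of a later day fell within the range of an earlier day, at any of the 3 steps. The log2 mean was 6.45 ± 0.22, 7.39 ± 0.15, 8.40 ± 0.30 and 10.01 ± 0.24 on days 0 to 3. Ttc9b was 1.92-fold higher at day 1, 3.87-fold at day 2 and 11.8-fold at day 3, where the log2 difference from day 0 was 3.56 ± 0.18. Its relative Ttc9c, at 11.30 ± 0.23 at day 0, differed by -0.29 ± 0.15 at day 3 (adjusted p = 0.131, and 0.0361 with 75th percentile scaling or 0.0442 without replicate 2 of day 0), and Ttc9 was not detected.

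**Figure D3:**
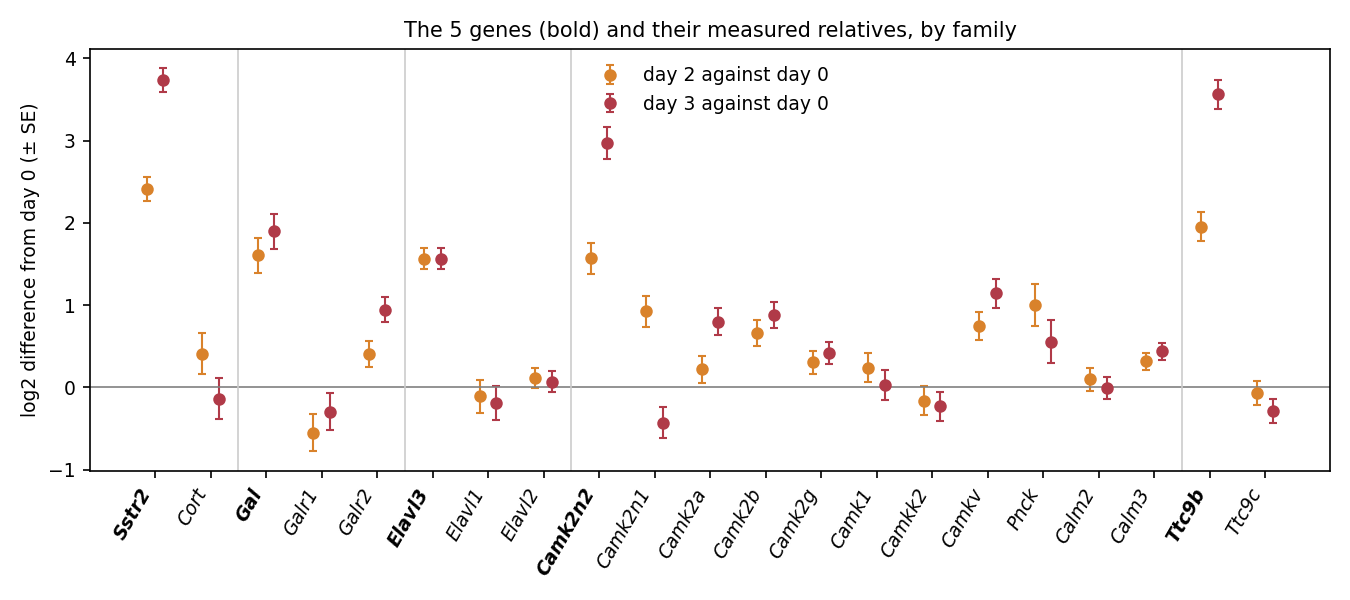
Log2 difference from day 0 (y axis, mean ± limma SE, 3 arrays a day) at day 2 and day 3 for the 5 genes, in bold, and for the relatives that were tested, with vertical lines between families. Sstr2, at 3.73 by the fitted values at day 3, was below the detection limit at day 0, so its fold is known as a bound. Galr2, Camkv, Camk2a and Camk2b are the relatives with the larger rises at day 3.

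The share of the day 3 change reached on earlier days differed among the genes. Of the 3 genes detected on all day 0 arrays, Elavl3 had covered 51.1% of its day 3 log2 change at day 1, Ttc9b 26.4% and Camk2n2 21.6%. At day 2 the shares were 100.1% for Elavl3, 54.9% for Ttc9b and 52.8% for Camk2n2. The shares have no error given, and Elavl3 had the smallest day 3 change of the 3. In log2 units Ttc9b had risen by 0.94 ± 0.18 at day 1 and Elavl3 by 0.80 ± 0.13. No share is given for Sstr2 and Gal, whose day 0 levels were measured on 0 and 1 of 3 arrays. The day 2 and day 3 arrays overlapped for Elavl3 and Gal, and those of the other 3 genes did not.

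The genes most like each member over the 12 arrays were found by the root mean square (RMS) of the log2 differences after centring each gene on its mean. Sstr2 was nearest to Slc38a5 (RMS 0.389), Nrip3 (0.419) and Crygd (0.419), against a median of 1.55 over all other genes. Camk2n2 was nearest to Klrg2 (0.248), Slc38a5 (0.298) and Crabp2 (0.321), and Ttc9b to Slc38a5 (0.328), Crygd (0.357) and Camk2n2 (0.374), with medians over all other genes of 1.15 and 1.35. Slc38a5, an amino acid transporter gene, was among the nearest 3 of Sstr2, Camk2n2 and Ttc9b alike. Gal was nearest to Mxra7 (0.249), Dusp26 (0.305) and Gch1 (0.311), with a median of 0.954. Elavl3 was nearest to 6330403K07Rik (0.202), Moxd1 (0.203) and Tmem159 (0.204), with a median of 0.691. The arrays are shared by all genes, so these distances are descriptions, and a gene near to Sstr2 had a large rise of its own. Among the 5 genes themselves the nearest pair was Camk2n2 and Ttc9b at 0.374 and the farthest Sstr2 and Elavl3 at 1.01. The distances include values below the detection limit, which Sstr2 had on all arrays of days 0 and 1. Nrip3, Crygd, Mxra7, Dusp26 and Klrg2 were detected on 0 of the day 0 arrays.

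The size of the change depended on how the background of the arrays was treated. In the unscaled, uncorrected intensities the ratio of day 3 to day 0 was 4.40 for Ttc9b, 4.36 for Camk2n2, 3.21 for Sstr2, 1.85 for Elavl3 and 1.77 for Gal. Quantile normalization with no background correction gave log2 differences at day 3 of 2.23 for Ttc9b, 2.19 for Camk2n2, 1.72 for Sstr2, 0.90 for Elavl3 and 0.82 for Gal. The authors' deposited normalized intensities gave 2.25, 2.21, 1.73, 0.91 and 0.83 in the same order. With the correction the differences were 3.56, 2.97, 3.73, 1.56 and 1.90. The 3.73 of Sstr2 is fitted against a day 0 level below the detection limit and gives it no rank among the 5 genes; with values below the limit set at it, the difference was 2.67. No alternative turned the direction of a called difference.

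**Figure D4:**
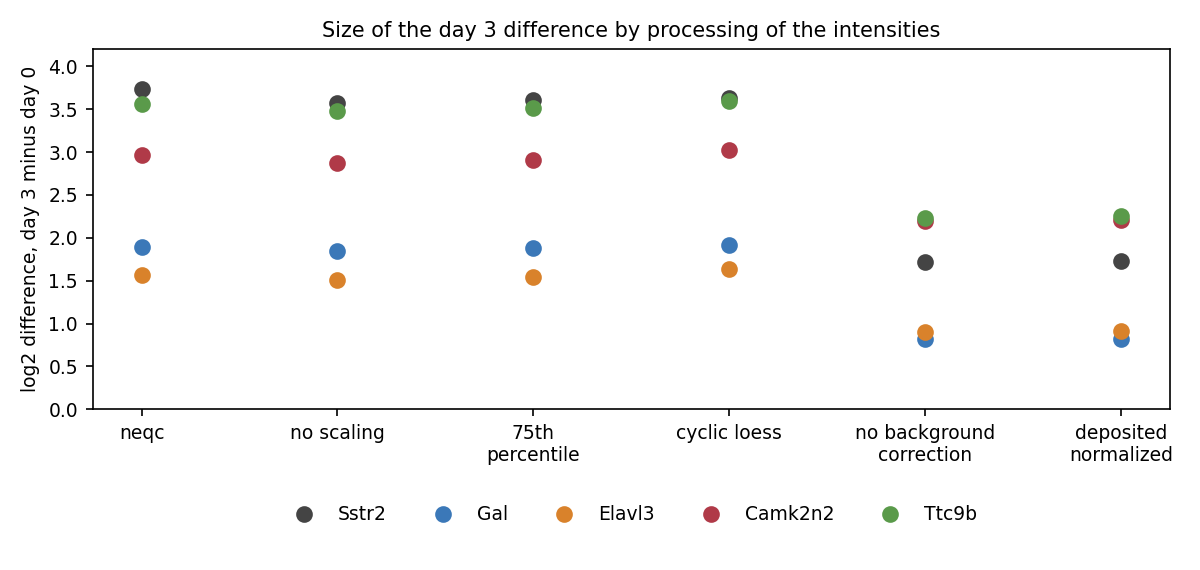
Log2 difference between day 3 and day 0 (y axis) of the 5 genes under 6 treatments of the same arrays (x axis). The first 4 treatments correct the background and stay close together, and the last 2, which do not, give values between 0.82 and 2.25.

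Other genes of neuronal function were read from lists of neuropeptides, their processing, synaptic release, the cytoskeleton, RNA binding, transcription factors and progenitors, together with the 5 families above. Of 252 distinct list genes on the array 95 were tested, and at day 3, 44 of them rose and 5 fell, beside 21.4% higher and 17.8% lower of all genes tested. The median log2 difference was 0.38, against 0.01 over all genes. Since a gene dim at day 0 can pass the detection filter only by being higher later, the 68 list genes detected on all 3 day 0 arrays were also read alone. Of these, 31 rose and 5 fell with a median of 0.28, beside 19.2% higher and 20.4% lower and a median of -0.03 over the 8349 such genes. The remaining list genes were not detected often enough for a test.

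Among precursors of other neuropeptides, 5 of 10 tested genes rose at day 3 and 0 fell, beside 21.4% and 17.8% of all genes tested. The median log2 difference of the 10 was 0.39. Of the 5 tested genes detected on all day 0 arrays 2 rose and 0 fell, with a median of 0.25. Npw, the precursor of neuropeptide W, rose by a fitted 2.48 ± 0.23 from a day 0 level detected on 1 of 3 arrays, and was 4.70-fold higher with undetected arrays set at their limit. Npy, whose product is neuropeptide Y, and Kiss1, the kisspeptin precursor, were undetected at day 0, so that they passed the filter only through later days, and were at least 1.42-fold and at least 1.33-fold higher at day 3. Trh, the thyrotropin-releasing hormone precursor, was bright on all days and rose by 0.79 ± 0.13. Of 37 other neuropeptide receptors on the array, 0 were detected on 3 arrays, so Sstr2, Galr1 and Galr2 were the receptors of such peptides that gave values.

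Genes that process neuropeptides or build dense-core granules included 5 of 6 that rose and 0 that fell, with a median of 1.06, and 4 of the 5 detected on all day 0 arrays rose, with a median of 0.95. They were led by Syt5, a calcium sensor of granules, at 1.59 ± 0.20, detected on 2 of 3 day 0 arrays. The granule proteins Vgf and Chga rose by 1.33 ± 0.17 and 1.17 ± 0.18, and Cpe, which trims the peptides' ends, by 0.95 ± 0.14. Vgf differed from day 0 by 0.07 at day 2, when Gal was already high. Of genes for synaptic vesicles and their release, 7 of 14 rose and 0 fell, with a median of 0.46, and of the 9 detected on all day 0 arrays 5 rose, with a median of 0.55. Both lists stand beside 21.4% higher and 17.8% lower of all genes tested. Among all genes detected on every day 0 array these shares were 19.2% and 20.4%. Cplx1 (complexin 1) rose by 2.23 ± 0.13, Rab3a by 1.48 ± 0.18, Slc17a7, a vesicular glutamate transporter detected on 2 day 0 arrays, by 1.41 ± 0.25 and Syp (synaptophysin) by 1.12 ± 0.16.

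In the neuronal cytoskeleton 13 of 24 tested genes rose and 0 fell, with a median of 0.57, and of the 17 detected on all day 0 arrays 10 rose, with a median of 0.55. Of all genes tested 21.4% were higher and 17.8% lower, and of those detected on all day 0 arrays 19.2% and 20.4%. Tubb4a, a beta tubulin, rose by 2.30 ± 0.17, the kinesin Kif1a by 2.20 ± 0.11, the neurofilament gene Nefm by 1.70 ± 0.26 and Mapk8ip1 by 1.65 ± 0.13. Tubb4a and Nefm were each detected on 1 of 3 day 0 arrays, and with undetected arrays set at their limit they were 4.58-fold and 2.49-fold higher. Other neuronal RNA-binding proteins, the group nearest in function to Elavl3, moved both ways, with 5 of 10 higher, 3 lower and a median of 0.23. Among the 9 detected on all day 0 arrays 4 were higher and 3 lower, with a median of 0.05. Rbfox3, known as NeuN, rose by 1.5 ± 0.23 and Celf5 was at least 1.82-fold higher than at day 0, while Msi2 changed by -1.08 ± 0.17 and Rbfox2 by -0.76 ± 0.18.

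Transcription factors of neurons and their precursors showed 2 of 10 higher and 2 lower, with a median of 0.03, and among the 8 detected on all day 0 arrays 1 higher and 2 lower, with a median of -0.04. Of all genes tested 21.4% were higher and 17.8% lower, so the counts of this list lie near the shares over all genes. Phox2a rose by 1.52 ± 0.14 and Onecut2, detected on 1 day 0 array, by 0.89 ± 0.21. Neurog3 was at least 1.56-fold lower at day 3, and Ebf1 changed by -0.61 ± 0.18 (adjusted p = 0.0158). The call of Ebf1 was lost without background correction, with 75th percentile or no scaling, and without replicate 2 or replicate 3 of day 3, at adjusted p from 0.0572 to 0.227. Of 5 progenitor genes tested Zfp521 rose, at least 1.66-fold, and it passed the filter only through later days. Of the 2 progenitor genes detected on all day 0 arrays 0 were called higher. The adjusted p of every other gene named from these lists was under 0.05 in the limma fit.

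**Figure D5:**
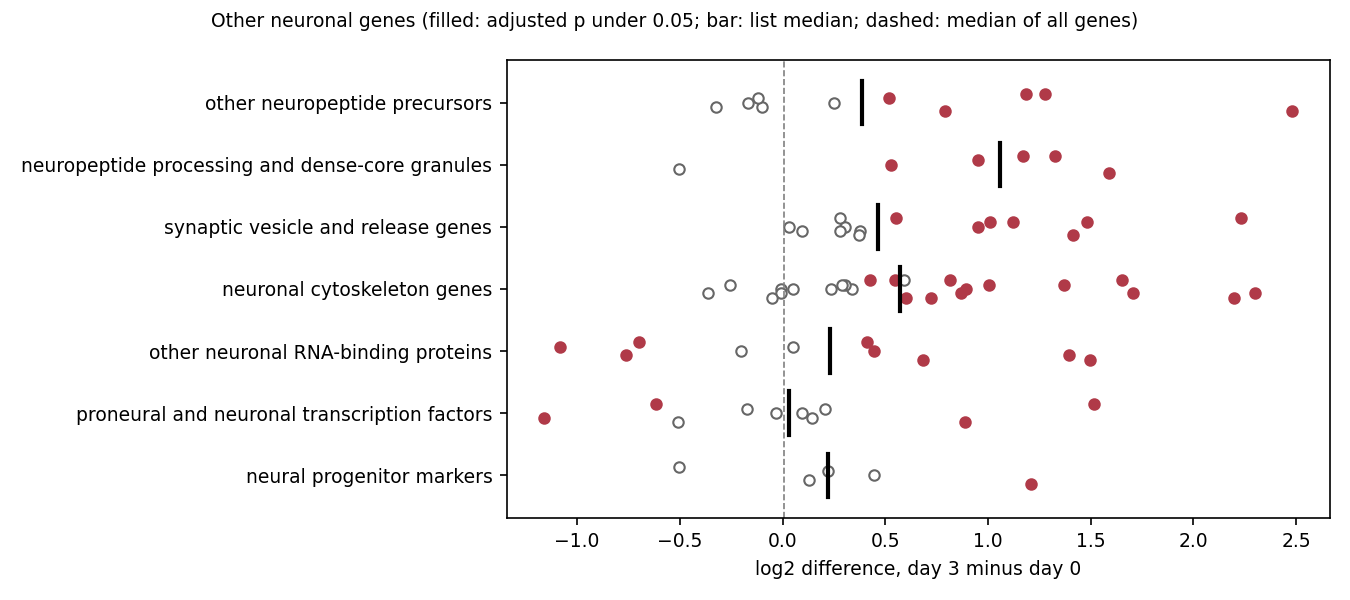
Log2 difference between day 3 and day 0 (x axis) of the tested genes of 7 neuronal lists, the 5 followed genes left out. Each point is a gene, filled where the adjusted p was under 0.05, black bars are list medians and the dashed line is the median of all genes, 0.01. Lists of peptide processing, release and the cytoskeleton lie to the right, and those of RNA-binding proteins and transcription factors spread to both sides. Of all genes tested, 21.4% were called higher and 17.8% lower.

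Of 6 genes picked as markers of neurons, 3 were never detected. Tubb3, Dcx and Snap25 were not detected on any array, and Syt1 was detected on 2 arrays of day 3. Map2 rose by 0.72 ± 0.11 at day 3 (adjusted p = 0.000318) and Stmn2 differed by -0.05, both detected on every array. The summed level of the 6 neuron markers was 4660 to 5545 at day 0 and 4720 to 5352 at day 3, in ranges that overlap, on the linear scale of the normalized intensities. At day 0 this sum came mainly from Map2 and Stmn2, the 2 genes detected there. The sum is weighted towards the brightest gene and does not show the course of all 6. The lists above were wider than these 6 genes. Of their 95 tested genes 44 rose and 5 fell at day 3, beside 21.4% higher and 17.8% lower of all genes tested.

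Markers of embryonic stem cells were all present. All 10 were detected on every day 0 array, and their summed level was 68100 to 72530 at day 0 and 44982 to 48557 at day 3. At day 3, 6 of the 10 fell, beside 17.8% of all genes tested and 20.4% of those detected on all day 0 arrays. Among these 6 markers were Fgf4 (log2 difference -2.30), Sox2 (-0.80), Nanog (-0.73) and Pou5f1 (-0.66). Their part in the changes of the 5 genes was not tested.

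Some markers of other cells moved as well. The 10 fibroblast markers summed to 1443 to 1640 at day 0 and 3345 to 5047 at day 3. Thy1, also a neuronal surface protein, was the 1 gene tested (rise of 1.75), and Col1a2, Col3a1, Pdgfrb, Lum, Dcn and Postn were never detected. Most of the gain in the fibroblast sum came from Thy1, at a log2 level of 10.20 at day 0 and 11.95 at day 3. The 10 markers of extraembryonic endoderm summed to 757 to 768 and 2147 to 2532, with Amn (rise of 4.00) and Dab2 (0.85) higher, Sox7 lower (-0.80), and Gata4, Sox17, Foxa2, Afp and Ttr never detected. Most of the gain in the endoderm sum came from Amn, at a log2 level of 6.67 at day 0 and 10.67 at day 3. The 10 of trophectoderm summed to 10358 to 11625 and 15410 to 16898. Gata3 (at least 1.71-fold), Tfap2c (0.77) and Krt8 (0.40) rose, Cdx2 changed by -0.52, and Eomes, Elf5 and Hand1 were never detected. The calls of Krt8 and Cdx2 were lost without scaling and without replicate 2 of day 3, at adjusted p from 0.0528 to 0.743, and those of Krt8 without replicate 1 and of Cdx2 without replicate 2 of day 0 at 0.0809 and 0.0579. With 75th percentile scaling the adjusted p of Krt8 was 0.227.

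Glia and hormone-secreting cells share many genes with neurons. The 9 glial markers on the array summed to 1028 to 1174 at day 0 and 1165 to 1292 at day 3, where Aldh1l1 rose by 1.55, Mbp by 0.81 and Slc1a3 changed by -0.60. Sox10 was undetected on both days but was detected on all 3 arrays of day 2, where it was at least 1.04-fold higher than at day 0 (adjusted p = 0.000764). Gfap was detected on no array of days 0 and 1 and on all of days 2 and 3, with a difference of 0.44 at day 3 (adjusted p = 0.112), and Aqp4, S100b and Mog were never detected. The 8 endocrine markers on the array summed to 272 to 342 and 341 to 495, and 6 of them were never detected. Whether cells of any such type entered the values of the 5 genes was not tested.

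Rest, which encodes the repressor named above, has 1 probe, and it was not detected on any array. Of 9 tested genes for its corepressors 2 rose and 1 fell, with a median log2 difference of 0.03, beside 21.4% higher and 17.8% lower of all genes tested. Among the 8 detected on all day 0 arrays 1 rose and 1 fell, with a median of -0.02. Ctdspl, a phosphatase gene that passed the filter only through later days, was at least 1.83-fold higher at day 3, Sin3b rose by 0.52 ± 0.13 (adjusted p = 0.00796) and Rcor2, a CoREST subunit gene, changed by -0.96 ± 0.21 (adjusted p = 0.00276). The call of Sin3b was lost with no scaling, where its adjusted p was 0.463.

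The neighbours of the 5 genes on their chromosomes were mostly not called changed. Taking the 2 nearest annotated protein-coding genes on each side gave 20 neighbours, of which 13 were tested, 1 rose, 1 fell and the median log2 difference at day 3 was 0.12, beside 21.4% higher, 17.8% lower and a median of 0.01 over all genes tested. The gene that rose was Slc39a11, within whose span Sstr2 lies on the other strand. Its log2 level was 9.73 ± 0.05 at day 0, 9.85 ± 0.04 at day 1, 10.55 ± 0.04 at day 2 and 10.89 ± 0.14 at day 3. It rose by 0.82 ± 0.10 at day 2 (adjusted p = 0.000192) and by 1.16 ± 0.10 at day 3 (adjusted p = 5.17e-06). Cog1, on the other side of Sstr2, differed by 0.33 ± 0.15 (adjusted p = 0.0927, and 0.0407 without replicate 2 of day 0 or 0.0464 without replicate 3 of day 3), and Fam104a by 0.12 ± 0.15 (adjusted p = 0.579).

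Near Gal, Tesmin rose by 1.01 ± 0.13 at day 2 (adjusted p = 0.000256) and differed by 0.17 ± 0.13 at day 3 (adjusted p = 0.353), while Gal stayed high. Ppp6r3 differed by -0.40 ± 0.16 (adjusted p = 0.0701), with a p under 0.05 with 75th percentile scaling, with no background correction, in the deposited normalized values and without replicate 3 of day 0 (0.00847 to 0.035), and Lrp5 by -0.06. Near Elavl3, the neighbours Ccdc151, Prkcsh, Zfp653 and Ecsit differed by 0.38, 0.15, -0.37 and -0.18 at day 3, with adjusted p from 0.186 to 0.278. Ccdc151 passed without replicate 3 of day 3, at an adjusted p of 0.00639. Near Camk2n2, Psmd2, a proteasome subunit gene, changed by -1.10 ± 0.29 (adjusted p = 0.00934, and 0.0863 with no scaling) by 1 probe, while its other probe was detected on 1 of 12 arrays, and Ece2 differed by -0.22 ± 0.16 (adjusted p = 0.305). Near Ttc9b, Zfp607b was the 1 neighbour tested and differed by 0.23 ± 0.19 (adjusted p = 0.358). Sox9, Cpt1a and Akt2 were detected on 1 array or on none, and Map3k10, Eef1akmt4, its read-through with Ece2 and Gm45975 were not analysed here.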

How the data were processed

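Expression was measured on 12 Illumina bead arrays, 3 for each of 4 days. The authors' deposited non-normalized table gives a mean bead intensity on a linear scale for each probe and array, with no scaling or background subtraction seen. Beside it stands a deposited detection p-value, whose steps match 936 negative controls. Per the submitters' processing notes the tool was GenomeStudio, with version and settings not given in the sources used here. A second deposited table holds intensity values on a linear scale whose columns have a median of 196 on every array, rank correlate at 1 with their own array and were used as an alternative. Its direction and scale are thus known, and how it was normalized is not. Per-sample columns left unused numbered 0.

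Intensities were background corrected with the detection p-values, quantile normalized and put on a log2 scale by limma 3.58.1 (R 4.3.3), function neqc, offset 16. The authors deposited no log2 values. Probes detected at p under 0.01 on at least 3 arrays were kept (17337 probes, 14940 with 1 symbol), and the one with the highest mean stood for its gene. GEO's platform annotation named 34885 probes with 1 symbol and 18 with several, left 10378 unnamed, and 34807 probes matched the RefSeq gene table (GRCm38.p6) by Entrez ID. The limma model (lmFit, eBayes) had 1 mean for each day over all 12 arrays and was two-sided, with Benjamini-Hochberg adjustment over the 9934 genes. The fit and the adjustment were first run on simulated log2 values with independent noise. That run did not cover the background correction, the choice of 1 probe for each gene or any correlation between arrays. Errors of levels are SDs over 3 arrays, errors of differences are limma standard errors, and the number of arrays limits their precision.

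The 5 genes, the 20 gene lists and the tests were chosen with earlier results of these data known. The genes named were every probe of the 5 genes, the tested relatives, in each other list the 4 called genes with the largest change at day 3, the 2 protein-coding neighbours on each side, the 3 genes of nearest course and Rest. Map2, Stmn2 and Gfap are named as markers, Gfap after its values were seen. Alternatives were no background correction, 3 other scalings, the deposited normalized values, 2 other detection filters, a replicate block, leaving out each of the 12 arrays and, added after seeing the data, setting values below an array's detection limit at that limit. Replicate numbers were not treated as pairs in the main fit, and the labels do not say whether equal numbers mark a shared series. Of 18 same-numbered pairs of arrays 13 correlated above 0.1, with a median of 0.25. Of the 12 arrays, 11 correlated best with an array of their own number. The main fit leaves this out, and the replicate block takes it in.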

Additional observations from a re-analysis of the deposited data

How the results depend on the processing

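Over 20 alternatives no difference of the 5 genes that was called, and no named gene's call, changed direction. Of 500 recomputed differences of the 5 genes 443 stayed within 1 SD of the value reported and 57 moved further. Many of the 443 could not move. Arrays were left out after normalization, so leaving out an array of a day outside a comparison cannot change its difference. The replicate block keeps the mean of each day, and the other detection filters choose probes without changing their values. The count of 443 is therefore no measure of how stable the differences were. Without background correction, or in the deposited normalized values, the day 3 difference was 1.72 or 1.73 for Sstr2, 0.82 or 0.83 for Gal, 0.90 or 0.91 for Elavl3, 2.19 or 2.21 for Camk2n2 and 2.23 or 2.25 for Ttc9b. With values below the detection limit set at it, an alternative added after seeing the data, that of Sstr2 was 2.67. The day 3 difference of Gal was then 1.72, within 1 SD of the value reported. Elavl3, Camk2n2 and Ttc9b were detected on every array, so this alternative could not change them. Leaving out 1 array gave 3.69 to 3.79 for Sstr2, 1.74 to 2.09 for Gal, 1.47 to 1.69 for Elavl3, 2.79 to 3.17 for Camk2n2 and 3.44 to 3.69 for Ttc9b. With no scaling, Gal and Elavl3 differed between days 2 and 3 by -0.13 and -0.40, while the median of all genes moved by -0.36.

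The number of genes called against day 0 was 10 at day 1, and 3 without background correction and in the deposited values, 17 with cyclic loess and with detection on 6 arrays, 1 with no scaling, 2 with no filter on detection, 24 with the replicate block and 0 to 15 leaving out 1 array. With no scaling, 1022 genes in place of 2228 were called at day 2, 1239 in place of 3889 at day 3, 368 in place of 1076 between days 1 and 2 and 187 in place of 1232 between days 2 and 3. The replicate block called 1973 in that last comparison. Leaving out 1 array gave 1575 to 2524, 3245 to 4019, 512 to 1300 and 577 to 1797 in the same order. At day 2, 66.1% of the calls were higher, 46.6% with 75th percentile scaling and 97.7% with no scaling. At day 3 they were 54.5%, 45.9% and 58.4%. The day 2 median of all genes was 0.27 with no scaling. Of the list genes, 44 rose and 5 fell at day 3, with no scaling 25 and 3, and leaving out 1 array 36 to 44 and 5 to 8. The cause of these shifts was not tested.

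Among the other named genes the replicate block changed the day 3 call of 1, Zfp653 (difference -0.37, adjusted p = 0.0402). With no scaling, Trh, Cpe, Dab2, Sox7, Slc1a3, Tfap2c and Psmd2 lost their calls, at adjusted p from 0.0514 to 0.222. In this check the lowest correlation of same-numbered arrays was -0.03 and the highest 0.46, and 11 of 12 arrays correlated best with an array of their own number. Of 52 called named genes 16 lost their call in some alternative, and 8 of the others gained one. Signal over background limits Sstr2, Gal and the dimmer probes, whose early days lie at or below the detection limit.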
